A study of Mus musculus with 4 samples.

Results

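The Hippo pathway and its TEAD transcription factors were examined in mouse embryonic stem cells (ESCs) with and without the circadian regulator BMAL1. The 10 genes were chosen by symbol: the TEAD paralogs *Tead1*, *Tead2*, *Tead3* and *Tead4*, the coactivators *Yap1* and *Wwtr1* (TAZ), the kinase *Lats2*, and the YAP targets *Ctgf*, *Cyr61* and *Amotl2*. All 10 were found, each as 1 feature, among 19645 features per library, of which 17710 carried a gene symbol. RNA-seq had been performed on 2 WT and 2 *Bmal1* KO libraries of ESCs kept in serum and LIF. The KO cells were a single clone, made with CRISPR-Cas9 and carrying a frameshift deletion at the start codon of *Bmal1* (listed as *Arntl*). The libraries of a group were described as biological replicates, with no separate clones, cultures or passages named, so p-values measure only the spread between these samples. The effect of the genotype and that of the clone cannot be told apart. Values were FPKM (fragments scaled by transcript length and by library size), so levels of different genes can be set side by side per length.

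In the Hippo pathway, the kinases MST1 and MST2 activate LATS1 and LATS2, which phosphorylate YAP and TAZ and keep them out of the nucleus. Unphosphorylated YAP and TAZ enter the nucleus, where they have no DNA-binding domain of their own and act through the TEAD proteins. In the early embryo, TEAD4 with nuclear YAP is required for the trophectoderm, the outer layer, and in ESCs the pathway has been tied to self-renewal and to differentiation.

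*Tead4* and the 3 YAP targets were higher in *Bmal1* KO than in WT ESCs, and so was *Wwtr1*. *Tead4*, at 4.41 ± 0.472 FPKM in WT and 10.9 ± 0.580 FPKM in KO libraries (mean ± SD, n = 2 each), was 2.48-fold higher. *Ctgf* and *Cyr61* were 2.01-fold and 1.94-fold higher, and *Wwtr1* and *Amotl2* 1.49-fold and 1.37-fold higher, by the ratio of mean FPKM. The other TEAD paralogs, *Yap1* and *Lats2* did not pass the test. Among 12 other tested YAP and TAZ targets, 1 passed as higher and 2 as lower. Their median log2 fold change was 0.02.

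Of the 10 genes, 5 had an adjusted p under 0.05 (limma on log2(FPKM + 0.1), Benjamini-Hochberg over 12990 tested features), all of them higher in KO libraries. Over all tested features, 12.5% passed in either direction, 6.85% as higher and 5.60% as lower. On the log2(FPKM + 0.1) scale, *Tead4* of the 10 genes also exceeded a 2-fold change and none did as lower, against 2.72% of all tested features as higher and 1.42% as lower. For 6 of the 10 genes the lowest KO library exceeded the highest WT library, against 27.0% of all tested features, and for 2 genes the KO libraries were both lower, against 31.7%. The median log2 fold change was 0.27 over the 10 genes and -0.02 over all tested features. By role, 1 of 4 TEAD paralogs passed with a median of -0.06, 1 of 3 coactivators and kinase with a median of -0.13, and 3 of 3 YAP targets with a median of 0.95. The genes were chosen with earlier results of these data known, so these counts describe them and test nothing about the pathway.

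Stretches of promoter are shown because TEAD proteins recognise the letters GGAATG, read as CATTCC on the other strand, and BMAL1 with its partner CLOCK recognises the E-box CACGTG. RefSeq start-site windows (GRCm38.p6, 250 bases before to 50 after the start) were given for 7 of the 10 genes, as 11 windows; *Tead1*, *Tead4* and *Ctgf* had none. The TEAD letters stood in 8 of the 11 windows and in 6 of the 7 genes (*Tead3*, *Yap1*, *Wwtr1*, *Lats2*, *Cyr61* and *Amotl2*), and in 14.7% of the 32851 windows and 16.6% of the 27025 genes given. The E-box stood in *Yap1* and *Lats2*, and in 7.15% of all windows and 8.09% of all genes. Both strands were searched, the 2 motifs overlapped nowhere in the stretches shown, and windows of the same gene can share a match, as those of *Wwtr1* do. Each stretch is given 5′ to 3′ on the strand of its gene, with TEAD letters and E-boxes in capitals.
*Cyr61* (chr3:145650066-145650185, minus strand, match 103 bases before the start): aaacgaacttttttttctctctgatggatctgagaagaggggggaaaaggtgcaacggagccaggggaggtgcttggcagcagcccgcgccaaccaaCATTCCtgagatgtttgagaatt
*Amotl2* (chr9:102717727-102717756, plus strand, match 65 bases before the start): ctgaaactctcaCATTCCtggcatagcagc
*Wwtr1* (chr3:57575991-57576110, minus strand, match 136 bases before the start): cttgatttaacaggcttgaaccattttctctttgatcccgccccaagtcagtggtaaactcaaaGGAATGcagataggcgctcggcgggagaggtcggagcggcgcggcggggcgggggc
*Yap1* (chr9:8004677-8004796, minus strand, TEAD letters 141 and E-box 163 bases before the start): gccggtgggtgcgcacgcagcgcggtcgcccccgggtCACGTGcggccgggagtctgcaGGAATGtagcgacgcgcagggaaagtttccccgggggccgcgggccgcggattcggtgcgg
*Lats2* (chr14:57746109-57746138, minus strand, TEAD letters 5 bases after and E-box 10 bases before the start): ggggtCACGTGacgcccgtGGAATGccaac
A match describes the letters only. The stretches of *Amotl2* and *Lats2* overlap annotated exons and UTR of those genes, and that of *Amotl2* lies downstream of where its measured feature begins. Of the 6 genes with TEAD letters, *Wwtr1*, *Cyr61* and *Amotl2* passed the test between genotypes, and *Tead3*, *Yap1* and *Lats2* did not.

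The libraries had summed FPKM of 840016.6 to 1183006.4. Features without a symbol took 26.8% and 37.3% of the sum in WT and 19.0% and 18.1% in *Bmal1* KO ESCs. *Arntl* itself was at 6.05 and 6.29 FPKM in WT and 5.95 and 5.92 FPKM in KO libraries, a log2 fold change of -0.06 ± 0.10 (SE) with an adjusted p of 0.750. A small frameshift deletion need not lower the RNA, so this level does not check the labels. The libraries also differed at Y-linked genes, named here after their values were seen: *Ddx3y* was at 0.235 and 0.403 FPKM in WT and at 16.4 and 20.6 FPKM in KO libraries, and the part of this difference in the results was not tested. The ESC marker *Pou5f1* was at 1389 to 1620 FPKM over the 4 libraries with overlapping groups, and the summed level of 10 ESC markers was 6980 to 7163 FPKM in WT and 6392 to 6826 FPKM in KO libraries. Of these 10, 6 were lower in both KO libraries and 2 higher, against 31.7% and 27.0% of all tested features. The part of this in the results was not tested. Of 11 fibroblast markers, 8 were in the files and 6 of these, including *Col1a1*, *Col1a2*, *Col3a1* and *Dcn*, stayed under 0.5 FPKM in every library. The 8 together summed to 5.09 to 5.31 FPKM in WT and 6.41 to 6.72 FPKM in KO libraries, most of it from *Thy1* and *Twist1*, and the part of this in the results was not tested. In bulk RNA, fewer cells of a type and less RNA per cell cannot be told apart.

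*Tead2* was the most abundant TEAD paralog in every library. *Tead2* (GRCm38 chr7:45215753-45233619, plus strand) was at 63.89 and 53.29 FPKM in WT and at 56.22 and 43.83 FPKM in KO libraries. The KO libraries overlapped the WT libraries, and the log2 fold change of -0.23 ± 0.15 (SE) had an adjusted p of 0.347. *Tead1* (chr7:112678892-112906805, plus strand) was at 11.68 and 11.80 FPKM in WT and 12.87 and 12.26 FPKM in KO libraries. The KO libraries were both higher, by a small margin, with a log2 fold change of 0.10 ± 0.09 and an adjusted p of 0.510. *Tead3* (chr17:28331673-28350805, minus strand), the least abundant paralog, was at 1.667 and 1.889 FPKM in WT and 1.633 and 1.418 FPKM in KO libraries. Both KO libraries lay below both WT libraries, and its adjusted p was 0.486. The 95% intervals of these log2 fold changes ran from -0.60 to 0.13 for *Tead2*, from -0.12 to 0.31 for *Tead1* and from -0.65 to 0.23 for *Tead3*.

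*Tead4* (chr6:128224295-128300913, minus strand), the paralog required for trophectoderm, was the only 1 of the 4 paralogs to pass the test. Its level was 4.747 and 4.080 FPKM in WT and 11.354 and 10.533 FPKM in *Bmal1* KO ESCs. The groups were separated by more than the spread within either, and *Tead4* rose by a log2 fold change of 1.29 ± 0.12 (SE, 95% interval 1.00 to 1.59, adjusted p = 0.00480). The processed pseudogene Gm21893 lies on the other strand of this locus, and the strandedness of the counting was not given in the sources used here, so its reads could not be told apart from those of *Tead4*. The paper also reported *Tead4* as higher in KO ESCs by RT-qPCR. Among the 5 tested features on either side of *Tead4*, the median log2 fold change was -0.03, from -0.42 at *Ccnd2* to 0.90 at *Prmt8*. None of these 10 had an adjusted p under 0.05 in limma, and 3 had an unadjusted p under 0.05. Over all 12990 tested features, 1831 were higher and 2013 lower at unadjusted p under 0.05.

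**Figure D1:**
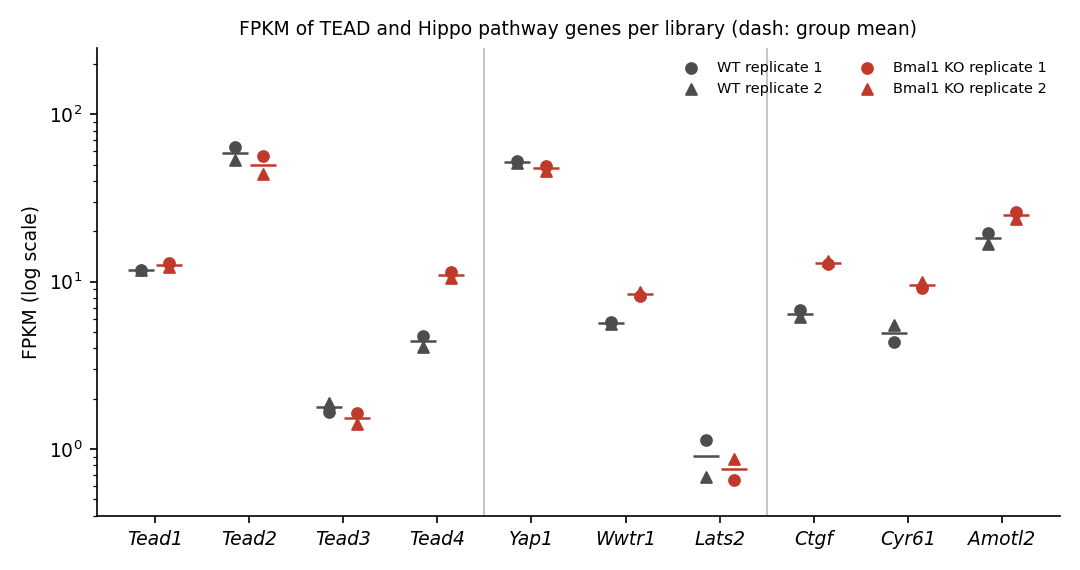
FPKM (log scale) of the 10 genes in each of the 4 libraries, WT in grey and *Bmal1* KO in red, with circles for replicate 1, triangles for replicate 2 and a dash at each group mean. *Tead4*, *Wwtr1*, *Ctgf*, *Cyr61* and *Amotl2* have both KO points above both WT points by more than the spread within groups, while *Tead2* and *Lats2* overlap.

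Within the summed TEAD level, *Tead4* had a larger share and *Tead2* a smaller share in both KO libraries, while the sum itself overlapped between the groups. Summed over the 4 paralogs, the level was 82.0 and 71.1 FPKM in WT and 82.1 and 68.0 FPKM in KO libraries. *Tead4* made up 5.79% and 5.74% of this sum in WT and 13.8% and 15.5% in KO libraries, a difference of 8.89 percentage points. *Tead2* made up 77.9% and 75.0% in WT and 68.5% and 64.4% in KO libraries, a difference of -10.005 percentage points. For both shares the groups did not overlap, and the two-sided exact permutation p was 0.333, the smallest that 2 against 2 libraries can give. The shares of *Tead1* (14.2% to 18.0%) and *Tead3* (1.99% to 2.66%) overlapped between the groups, each with an exact permutation p of 0.667. Shares of 1 sum are tied together and are not independent of each other.

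**Figure D2:**
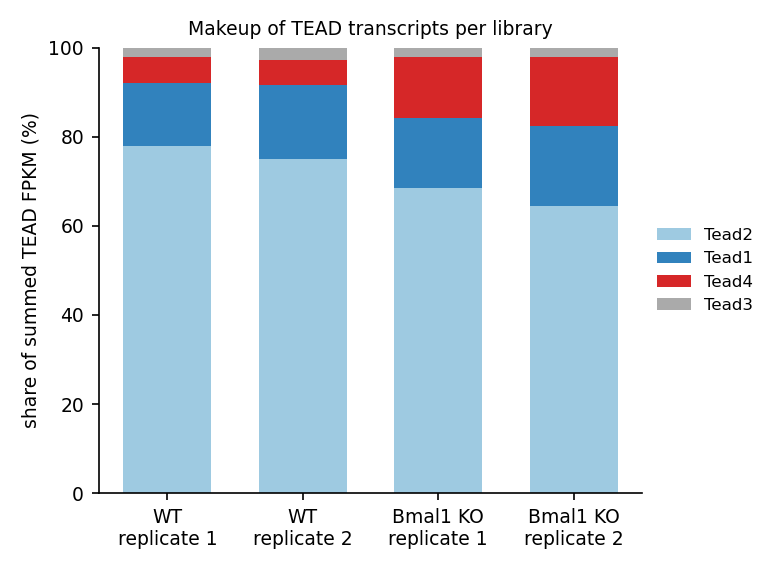
Share of the summed TEAD FPKM (percent) taken by each paralog in each of the 4 libraries. *Tead2* takes 64.4% to 77.9% everywhere, and *Tead4* takes 5.74% and 5.79% in WT and 13.8% and 15.5% in KO libraries.

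Of the coactivator transcripts, the less abundant *Wwtr1* rose and *Yap1* did not pass the test. Only RNA was measured in these libraries, not the amount, phosphorylation or place of the proteins. *Wwtr1* (chr3:57455644-57575910, minus strand), which encodes TAZ, was at 5.735 and 5.566 FPKM in WT and 8.179 and 8.692 FPKM in KO libraries. Both KO libraries lay well above both WT libraries, with a log2 fold change of 0.57 ± 0.10 (SE) and an adjusted p of 0.0224. Without KO replicate 2 its adjusted p was 0.0612. *Yap1* (chr9:7932001-8004596, minus strand) was at 52.58 and 51.30 FPKM in WT and 49.31 and 45.77 FPKM in KO libraries. Both KO libraries lay just below both WT libraries, and the log2 fold change of -0.13 ± 0.08 had an adjusted p of 0.327. *Wwtr1* thus made up 9.83% and 9.79% of the *Yap1* and *Wwtr1* sum in WT and 14.2% and 15.96% in KO libraries (difference 5.28 percentage points, two-sided exact permutation p = 0.333). *Yap1* stayed the more abundant coactivator transcript in every library.

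*Lats2* (chr14:57689662-57746123, minus strand), which like *Lats1* encodes a kinase that phosphorylates YAP and TAZ, was the least abundant of the 10 genes. It was at 1.131 and 0.683 FPKM in WT and 0.657 and 0.870 FPKM in KO libraries. The groups overlapped, the adjusted p was 0.713, and the 95% interval of the log2 fold change, from -0.97 to 0.57, left room for changes in either direction. The log2 fold change of -0.20 became 0.13 without WT replicate 1, the library with the highest value. *Lats1*, named here after its values were seen, was at 3.46 and 3.63 FPKM in WT and 3.38 and 3.34 FPKM in KO libraries (limma adjusted p = 0.723).

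The 3 YAP targets moved in the same direction. *Ctgf* (chr10:24595442-24598682, plus strand), which encodes a secreted matricellular protein, was at 6.757 and 6.154 FPKM in WT and 12.686 and 13.253 FPKM in KO libraries. Both KO libraries lay far above both WT libraries, and *Ctgf* rose by 1.00 ± 0.10 (SE) on the log2(FPKM + 0.1) scale with an adjusted p of 0.00558, just short of 2-fold before rounding. It passed 2-fold without WT replicate 1 (1.06) and without KO replicate 1 (1.03). The antisense transcript Gm15270 overlaps *Ctgf*, and its reads could not be told apart from those of *Ctgf*. The same limit holds for *Wwtr1* with the processed pseudogene Gm16016 and for *Yap1* with the transcript Gm20416, each on the other strand. It also holds for *Tead1* and *Lats2*, which overlap other annotated genes, for *Lats2* including the protein-coding Gm49361 on its own strand.

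*Cyr61* (chr3:145646971-145650001, minus strand), a matricellular protein of the same family as *Ctgf*, was at 4.348 and 5.532 FPKM in WT and 9.112 and 10.023 FPKM in KO libraries. The lowest KO library was above the highest WT library, and *Cyr61* rose by 0.95 ± 0.14 (SE, adjusted p = 0.0151). It passed 2-fold without WT replicate 2 (1.12) and without KO replicate 1 (1.02). Among the 5 tested features on either side of *Cyr61*, the median log2 fold change was -0.09, from -0.67 at *Syde2* to 1.90 at *Clca4a*. Of these, *Clca3b* and *Clca4a* were higher (limma adjusted p = 0.0235 and 0.00543), and 7 of the 10 had an unadjusted p under 0.05. *Amotl2* (chr9:102717318-102733419, plus strand), an angiomotin that holds YAP at cell junctions and is itself a YAP target, was at 19.53 and 16.86 FPKM in WT and 26.09 and 23.73 FPKM in KO libraries. The groups did not overlap, and the log2 fold change was 0.45 ± 0.11 with an adjusted p of 0.0472, close to the threshold. Its adjusted p was 0.123 without WT replicate 2, 0.123 without KO replicate 1, 0.0843 with no filter on low values and 0.102 with no trend in the variance.

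**Figure D3:**
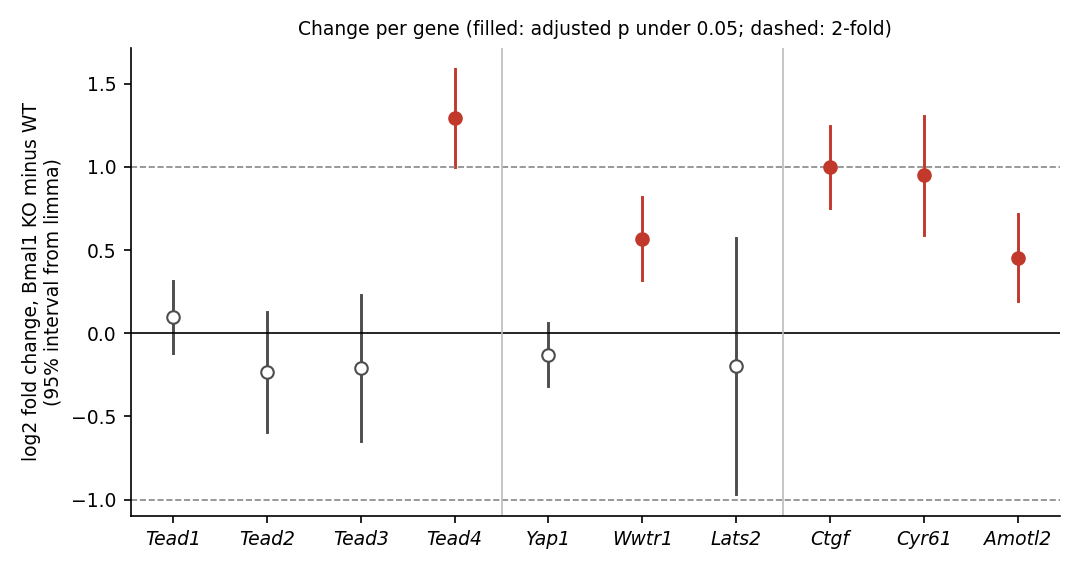
Log2 fold change (KO minus WT, log2(FPKM + 0.1)) of each gene with its 95% interval from limma on 2 libraries a group. The intervals of *Tead4*, *Ctgf*, *Cyr61*, *Wwtr1* and *Amotl2* lie above 0, and those of the other 5 genes include 0.

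The order of the levels differed between the groups. In WT libraries the means ran from *Tead2* (58.6 FPKM) over *Yap1* (51.9), *Amotl2* (18.2), *Tead1* (11.7), *Ctgf* (6.46), *Wwtr1* (5.65), *Cyr61* (4.94), *Tead4* (4.41) and *Tead3* (1.78) to *Lats2* (0.907 FPKM). In this order *Cyr61* and *Tead4* were the only neighbours whose 2 values overlapped. In KO libraries they ran from *Tead2* (50.02 FPKM) over *Yap1* (47.5), *Amotl2* (24.9), *Ctgf* (13.0), *Tead1* (12.6), *Tead4* (10.9), *Cyr61* (9.57), *Wwtr1* (8.44) and *Tead3* (1.53) to *Lats2* (0.763 FPKM). Here *Tead2* overlapped *Yap1* and *Ctgf* overlapped *Tead1*. By group means, *Tead4* stood below *Wwtr1* and *Cyr61* in WT and above both in KO libraries. In WT replicate 1, however, *Tead4* (4.747 FPKM) was above *Cyr61* (4.348 FPKM). Within a library, *Tead4* lay between percentiles 53.1 and 68.3 of all features with a symbol and *Yap1* between 88.6 and 89.7.

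**Figure D4:**
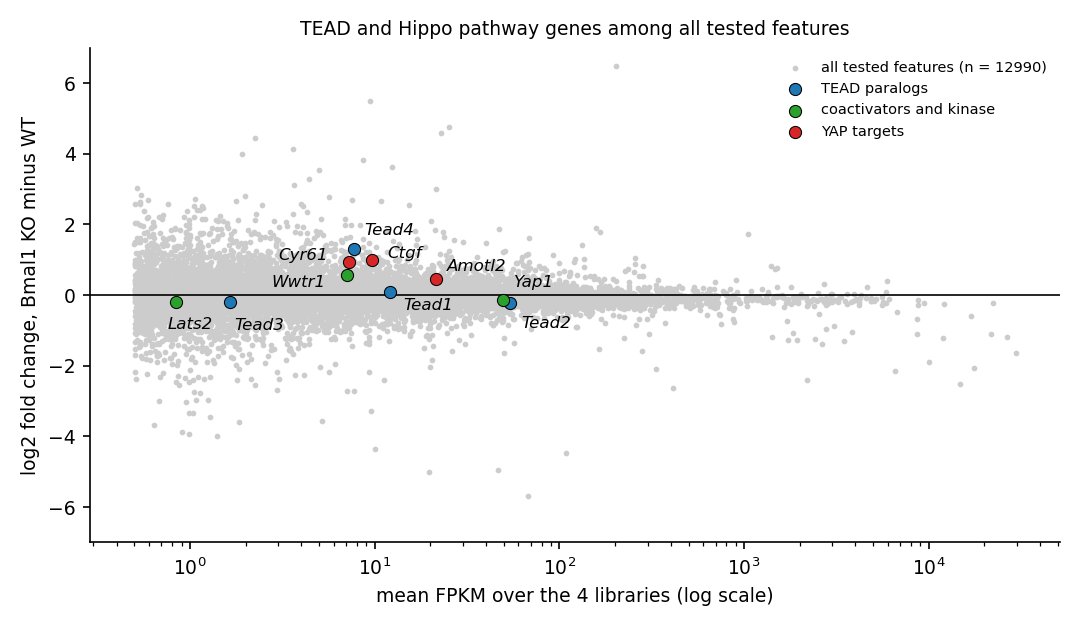
Log2 fold change (KO minus WT) against mean FPKM (log scale) for the 12990 tested features (grey) and the 10 genes (coloured by role). *Tead4*, *Ctgf* and *Cyr61* sit near or above 1 at mean levels of 7.25 to 9.71 FPKM, and *Tead2* and *Yap1* sit near 0 at 54.3 and 49.7 FPKM.

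Other genes of the pathway were read from 4 further lists. Of their 73 genes, 72 were in the files and 61 were tested, of which 5 rose and 2 fell (adjusted p under 0.05 in limma), with a median log2 fold change of -0.05. These counts lie near the shares of all tested features that passed, 6.85% as higher and 5.60% as lower. At unadjusted p under 0.05 in limma, 7 of the 61 were higher and 7 lower, against 1831 and 2013 of all 12990 tested features. Of 14 tested genes of the kinase cascade, *Mob1a*, a LATS cofactor, and *Map4k4*, a kinase that acts on LATS, rose and none fell at adjusted p under 0.05, where 2 had lower values at unadjusted p under 0.05. *Mob1a* was at 9.995 and 10.04 FPKM in WT and 19.5 and 20.6 FPKM in KO libraries (log2 fold change 0.99, adjusted p = 0.00410). *Map4k4* was at 34.6 and 33.6 FPKM in WT and 46.8 and 45.5 FPKM in KO libraries (0.44, adjusted p = 0.0192, 0.0578 without KO replicate 1 and 0.0602 with no trend in the variance). For both genes the KO libraries lay clear of the WT libraries. *Mob1a* lies on chromosome 6, where 7 of the 10 tested features around it also rose, with a median log2 fold change of 0.76. These neighbours were looked at after the value of *Mob1a* was seen.

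Upstream, *Nf2*, which encodes the pathway activator Merlin, and *Dlg5*, a polarity scaffold, rose among 20 tested genes, and none fell at adjusted p under 0.05. At unadjusted p under 0.05 in limma, 2 were lower, named here after their values were seen. These were *Crb3* (log2 fold change -0.88, adjusted p = 0.0501) and *Mob4* (-0.37, adjusted p = 0.0908). *Nf2* was at 50.6 and 48.8 FPKM in WT and 82.9 and 74.7 FPKM in KO libraries (0.66, adjusted p = 0.00937). *Dlg5* was at 7.32 and 6.04 FPKM in WT and 11.0 and 9.68 FPKM in KO libraries (0.63, adjusted p = 0.0365). Its adjusted p was 0.0733 without KO replicate 1, 0.0777 with no filter on low values and 0.0753 with no trend in the variance. By the mean over all 4 libraries, the most abundant gene after *Nf2* in this list was the polarity gene *Scrib*, which was at 27.0 to 32.1 FPKM with overlapping groups. None of 16 tested regulators of YAP and TEAD passed in limma, with 1 higher and 1 lower at unadjusted p under 0.05. The most abundant of these, the 14-3-3 genes *Ywhae* and *Ywhaq*, which bind phosphorylated YAP, had log2 fold changes of -0.03 and -0.05. At unadjusted p under 0.05 in limma, the higher regulator was *Vgll3* (0.98, adjusted p = 0.0709). The lower was another 14-3-3 gene, *Ywhab* (-0.30, adjusted p = 0.0884). Both were named here after their values were seen.

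Other YAP and TAZ targets were mixed in direction. Of 12 tested, *Igfbp3* rose, *Fjx1* and *Myof* fell, and the median log2 fold change was 0.02. *Igfbp3*, an insulin-like growth factor binding protein, was at 2.99 and 3.42 FPKM in WT and 6.71 and 7.51 FPKM in KO libraries. It rose by 1.13 ± 0.13 (SE, adjusted p = 0.00746) and was the only gene of the 4 lists past 2-fold. *Fjx1*, the counterpart of the fly gene four-jointed, was at 16.3 and 14.2 FPKM in WT and 9.24 and 8.47 FPKM in KO libraries (-0.78, adjusted p = 0.0120). *Myof* was at 8.62 and 8.28 FPKM in WT and 6.35 and 5.83 FPKM in KO libraries (-0.47, adjusted p = 0.0412), and its adjusted p was 0.0546 to 0.125 when any of the 4 libraries was left out. *Ankrd1*, a widely used YAP reporter, was not tested: it was at 0.131 and 0.0773 FPKM in WT and listed at 0 in both KO libraries.

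**Figure D5:**
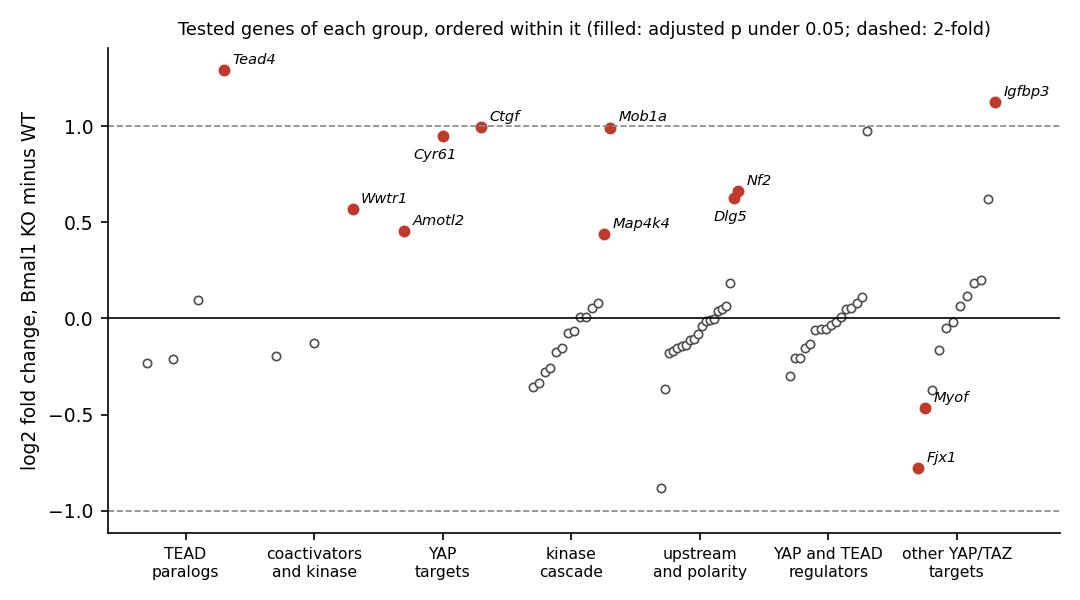
Log2 fold change (KO minus WT) of each tested gene, by group and ordered within it, filled where the adjusted p was under 0.05 (dashed lines, 2-fold). The 3 YAP targets lie at 0.45 to 1.00, and most of the 61 other pathway genes lie near 0.

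The features whose pattern over the 4 libraries was most like that of *Tead4* (root mean square distance of centred log2 values) were *Pltp* (0.0240), *Epb4.1l3* (0.0371), *Mlf1* (0.0414), *Kif26a* (0.0450) and *Scube3* (0.0456). A distance under 0.1 from *Tead4* was found for 48 tested features. For *Ctgf* the nearest were *Nkd2* (0.0167), *Suclg1* (0.0264), *Ano8* (0.0291), *Exoc6b* (0.0325) and *Tceal1* (0.0328), and 111 features lay within 0.1. The measure was taken over 4 libraries only and says nothing of shared function.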

How the data were processed

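RNA-seq of rRNA-depleted total RNA from 2 WT and 2 *Bmal1* KO ESC libraries was used. Per the labels, the authors aligned reads to GRCm38 with TopHat2 2.1.1 and Bowtie2 2.3.0, and the deposited FPKM came from Cufflinks 2.2.1. The files gave no counts, so depth is unknown and no counting error could be given. FPKM was transformed as log2(FPKM + 0.1), which understates changes of low genes. Features whose mean over the 4 libraries reached 0.5 FPKM were tested (12990), and 6655 were not. Genotypes were compared with limma 3.58.1 (R 4.3.3, moderated variance with a trend, Benjamini-Hochberg over all tested features), after testing on simulated data. A call was an adjusted p under 0.05 and over 2-fold. Shares were compared by exact permutation over libraries (Python 3.11.15). Named genes were the 10 genes, *Arntl*, called genes of each list or its 2 most abundant, flanking features, and the 5 features most like *Tead4* and *Ctgf*; genes past the adjusted p alone were named after their values were seen. The genes and lists were chosen with earlier results of these data known. Alternatives covered pseudocounts, filters, scaling, the variance trend, a replicate block and leaving out each library.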

Additional observations from a re-analysis of the deposited data

How the results depend on the processing

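Over 10 alternative settings and 4 fits without a library, *Tead4*, *Ctgf* and *Cyr61* kept an adjusted p under 0.05 in 14 of 14, *Wwtr1* in 13 and *Amotl2* in 10. The log2 fold change of *Tead4* ranged from 1.14 to 1.401. The count past 2-fold depended on the setting: 1 of the 10 genes in the reported fit, 2 with a pseudocount of 0.01, 2 with median-of-ratios scaling, 3 when rescaled to features with a symbol, and 1 to 3 when a library was left out. With an adjusted p alone the count was 5, and 4 to 5 without a library. In the other pathway lists, 1 gene past 2-fold became 0 with a pseudocount of 1, 2 with quantile normalization, 2 with median-of-ratios scaling, 2 when rescaled, and 1 to 3 without a library. Over all tested features, 538 calls became 231 with a pseudocount of 1 and 605 to 820 without a library (820 without WT replicate 1), and the 353 higher and 185 lower calls became 305 and 309 without KO replicate 1. Features with an adjusted p under 0.05 numbered 1618, 951 with no filter and 4052 with the replicate block. The *Tead4* share difference of 8.89 points was 8.07 to 9.72 without a library. *Lats2* turned from -0.20 to 0.13 without WT replicate 1 (range without a library -0.52 to 0.13) and was not tested at a mean FPKM of at least 1. Leaving out a library left 1 sample in a group, which is then assumed to vary like the other group. The labels share replicate numbers but do not say that these pair the cultures, and the replicate differences of WT and KO libraries correlated at 0.0712 (Pearson) and 0.387 (Spearman) across 12990 features. With the replicate block, 17 rather than 7 genes of the other pathway lists had an adjusted p under 0.05, *Tead2* had 0.0187, and no call of the other 9 genes changed. The factors of median-of-ratios scaling ran from 0.9977 to 1.007 over the libraries, so that setting changed the values little. The depth behind each FPKM is unknown, which limits the low genes *Tead3* and *Lats2* most.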

Other observations

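*Ctgf* and *Cyr61* are also known targets of SRF and its MRTF cofactors. Of 14 tested genes of a list that holds SRF, its cofactors *Mkl1* and *Mkl2* and their targets, *Actb* rose (limma adjusted p = 0.0229, 0.0664 without KO replicate 1, 0.0567 with no filter on low values and 0.0632 with no trend in the variance), and the smooth muscle genes *Tagln* and *Myl9* fell past 2-fold, as 1.42% of all tested features did (185, and 323 without WT replicate 1, 294 without WT replicate 2 and 309 without KO replicate 1). *Tagln* was at 5.59 and 4.22 FPKM in WT and 2.18 and 1.93 FPKM in KO libraries (log2 fold change -1.21, limma adjusted p = 0.0136), and *Myl9* at 7.02 and 5.84 against 2.76 and 2.101 FPKM (-1.37, adjusted p = 0.00983).

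Of 5 tested trophectoderm markers, *Tfap2c* rose from 5.66 and 4.72 FPKM in WT to 8.54 and 9.36 FPKM in KO libraries (0.78, adjusted p = 0.0187), and *Eomes* fell from 2.21 and 2.25 to 0.463 and 0.775 FPKM (-1.73, adjusted p = 0.0154). *Cdx2* was at most 0.0876 FPKM in any library. The summed level of the 9 markers in the files was 33.9 to 37.8 FPKM in WT and 32.8 to 32.9 FPKM in KO libraries. Of 4 tested primitive endoderm markers *Sparc* fell (adjusted p = 0.0459, and 0.114 to 0.172 when any library was left out), and the summed level of all 7 listed, most of it *Sparc*, was 73.0 to 75.9 FPKM in WT and 61.0 to 62.5 FPKM in KO libraries. *Col4a1* and *Dab2* of this list were higher in both KO libraries, *Col4a1* with an adjusted p of 0.167 and *Dab2* not tested. In limma, 6 of 10 ESC markers were lower at unadjusted p under 0.05, against 2013 of the 12990 tested features. The median log2 fold change was -0.20 over the ESC markers and -0.02 over all tested features. At adjusted p under 0.05, *Tfcp2l1* rose and *Klf4*, *Tdgf1* and *Utf1* fell, where 12.5% of all tested features passed and 5.60% as lower. *Klf4* alone of these kept an adjusted p under 0.05 whichever library was left out, and had 0.0582 with no trend in the variance. Neither fibroblast marker tested, *Thy1* or *Twist1*, passed in limma (1 at unadjusted p under 0.05).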
